A study of Mus musculus with 16 samples.

Results

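The mRNA of 8 genes that handle thyroid hormone was examined in libraries labelled as brain microglia, from mice with experimental autoimmune encephalomyelitis (EAE), the inflammatory demyelinating model of multiple sclerosis. The genes were Dio2, Dio3, Thra, Thrb, Slco1c1, Crym, Hr and Klf9, found by their symbols, and they are 8 of the 21878 mRNAs in the count table. The group was chosen by the log2 fold change and adjusted p of Dio3 in the EAE against PBS contrast, where it was among the differentially expressed mRNAs (DEmRNAs), with the other values of that contrast known, so the group differences of the members are given as descriptions without a test. Each of 8 EAE mice and 8 PBS-treated mice (controls) gave 1 stranded, ribosome-depleted total RNA library. All mice were WT female C57BL/6 animals, 8 weeks old. The EAE mice received myelin oligodendrocyte glycoprotein (MOG) peptide 35–55 in complete Freund's adjuvant together with pertussis toxin at 200 ng per dose, and the controls received PBS. Brains were collected 14 days after immunization, at a clinical score of 3 to 4 in the EAE mice, and cells were purified by the CD11b+/CD45int gate. In the treatment field of the labels the last MOG residue differs between mice, from 55 in EAE 1 to 62 in EAE 8, whereas the protocol gives 55 for all. Libraries are named by group and replicate number, each stands for 1 mouse, and a single model, sex and time point were sampled.

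Thyroid hormone reaches the brain mostly as thyroxine (T4), which carriers such as Slco1c1 bring across endothelial and glial membranes. Dio2 converts T4 into the active hormone T3, whereas Dio3 degrades both T4 and T3, so that the pair sets the hormone supply of a cell independently of the blood. T3 binds the nuclear receptors Thra and Thrb, which work with corepressors such as Hr and drive target genes such as Klf9, and Crym holds T3 in the cytosol. In the adult brain Dio2 is known from astrocytes and tanycytes, and Dio3, Thra and Crym are known mainly from neurons.

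Both deiodinases are selenoproteins, in which a TGA codon is read as selenocysteine at the centre of the active site. The coding sequence around this codon is shown because the pair differs in level and in group difference while the catalytic core is of the same family. In the GENCODE M21 annotation (GRCm38), the codon of Dio3 is codon 170 of 304, at chr12:110279739-110279741 on the plus strand, and the first such codon of Dio2 is codon 130 of 266, at chr12:90729823-90729825 on the minus strand. Each line is 45 bases of coding sequence, 5′ to 3′, with the selenocysteine codon in capitals.
Dio3: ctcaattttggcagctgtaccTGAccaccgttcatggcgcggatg
Dio2: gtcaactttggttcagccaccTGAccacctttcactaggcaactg
Of these 45 bases, 28 (62.2%) were identical between Dio3 and Dio2. Dio2 has a further annotated selenocysteine codon near its C-terminus, codon 263.

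The genes lie on 6 chromosomes of GRCm38. Dio3 (ENSMUSG00000075707) is at chr12:110279068-110281097 on the plus strand, at the distal end of the imprinted Dlk1-Dio3 domain. Dio2 (ENSMUSG00000007682) is at chr12:90724552-90738438 on the minus strand, 19.54 Mb away. Thra is at chr11:98740638-98769006, Thrb at chr14:17660261-18038090, Hr at chr14:70552212-70573548, Crym at chr7:120186380-120202111, Slco1c1 at chr6:141524368-141570177 and Klf9 at chr19:23141226-23168134. The last 1075 bases of Thra overlap Nr1d1 on the opposite strand, Dio2 overlaps the lncRNA Gm26512, and Thrb overlaps the antisense gene Gm48321. The strand setting of the counting is not given in the sources used here, so reads of these overlaps cannot be assigned with certainty. Dio3 overlaps no annotated gene, and its divergent partner Dio3os starts 895 bases upstream on the opposite strand (not analysed here).

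Total counts per library were 24587443–30244215 (EAE) and 26031889–34184576 (PBS). The number of mice and their spread set the precision, and for Dio3, with few counts, so did counting error. FPKM, which scales fragments by transcript length and library size, allows levels of different genes to be compared, as far as the lengths used by the authors are right. The labelled cell type was checked against marker lists by their summed FPKM. The 12 microglia markers summed to 133.6–221.2 in EAE and 119.5–203.0 in PBS libraries and were all detected. The 8 neuron markers summed to 890.7–1170 and 1111–1271, the 10 astrocyte markers to 996.3–1456 and 1164–1347, and the 8 oligodendrocyte markers to 421.8–564.1 and 471.4–601.9. The neuron, astrocyte and oligodendrocyte sums were each above the microglia sum in every library, so in this respect the markers go against the label. A set of 6 libraries (EAE 6, 7 and 8, PBS 5, 7 and 8) was taken as more alike from earlier results of these data. No measure of this likeness is given here, and neither the labels nor the methods name a batch. Values within the set and within the other 10 libraries are given where they bear on a result. A lower value in these bulk libraries cannot be told apart between fewer cells of a type and less RNA per cell.

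Dio3, the hormone-inactivating deiodinase, was the member with the lowest level and the largest group difference. It was at 0.470 ± 0.077 FPKM in EAE mice (SD, n = 8) and 0.969 ± 0.227 FPKM in controls (SD, n = 8). Among the EAE libraries, the FPKM was 0.424 in EAE 1, 0.492 in EAE 2, 0.435 in EAE 3, 0.639 in EAE 4, 0.425 in EAE 5, 0.509 in EAE 6, 0.409 in EAE 7 and 0.423 in EAE 8. Among the PBS libraries, it was 0.946 in PBS 1, 0.973 in PBS 2, 1.082 in PBS 3, 1.16 in PBS 4, 0.606 in PBS 5, 0.980 in PBS 6, 0.705 in PBS 7 and 1.30 in PBS 8. The ranges overlapped only through EAE 4, which lay above PBS 5, and the other 7 EAE libraries were below all 8 PBS libraries. The log2 fold change (log2FC, EAE minus PBS) of the edgeR fit was −1.09 (SE 0.19), a 2.13-fold lower level. The fit scales libraries by TMM normalization factors, which FPKM does not use, so a log2FC can differ from the fold of the FPKM means. For Slc7a8, a carrier gene, even the sign differed, at a log2FC of −0.02 with means of 21.8 FPKM in EAE mice and 21.3 FPKM in controls.

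These values rest on few reads. Dio3 had 20 to 31 counts per EAE library and 37 to 75 counts per PBS library, or 186 and 431 counts in all. For a single library, the exact Poisson 95% interval of the count was 21.1 to 44.0 in EAE 4 and 26.1 to 51.0 in PBS 5, the pair that overlapped, and it covers counting error only. Counting alone gives a coefficient of variation of 20.7% for EAE and 13.6% for PBS libraries, against observed values of 16.5% and 23.4%. The EAE libraries therefore varied no more than their counts allow, and the PBS libraries varied more.

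Dio3 was also read within each set of libraries, as a description, since its contrast chose the members. The set of 6 holds only 3 libraries per group and the other 10 hold 5. The groups did not overlap within the 6 or within the 10, and the share of all mRNAs for which this holds is not given here. In the set of 6, the EAE libraries were at 0.409–0.509 FPKM and the PBS libraries at 0.606–1.30 FPKM, with a log2FC of −0.98. In the other 10, the EAE libraries were at 0.424–0.639 FPKM and the PBS libraries at 0.946–1.16 FPKM, with a log2FC of −1.15. The PBS libraries with the 2 lowest values, PBS 5 and PBS 7, and the one with the highest, PBS 8, all belong to the set of 6.

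**Figure D1:**
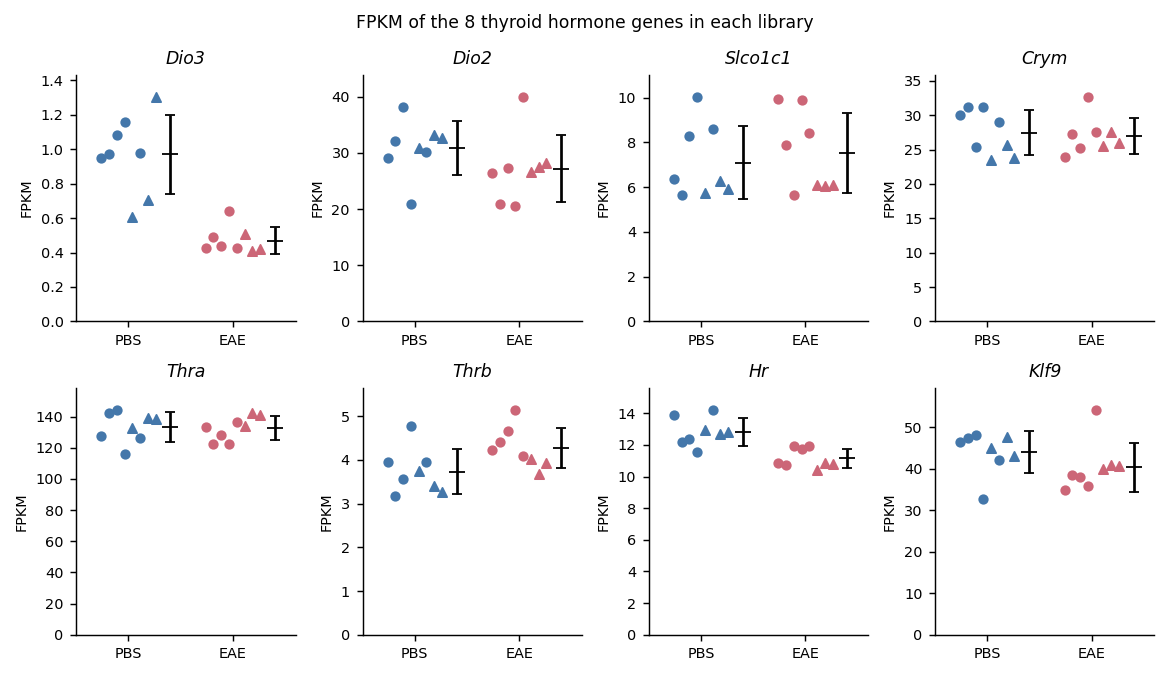
FPKM of each member (linear y axes from 0) in 8 PBS and 8 EAE libraries, with triangles for the set of 6 libraries, circles for the other 10, and the mean ± SD in black. Dio3 separates the groups except for EAE 4 and PBS 5, 7 of 8 Hr values in PBS libraries lie above all EAE values, and the other 6 members overlap widely.

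Dio2, the activating deiodinase, was at 27.2 ± 5.94 FPKM in EAE mice and 30.9 ± 4.83 FPKM in controls (SD, n = 8 each). The lowest, median and highest values were 20.6, 27.0 and 39.9 FPKM in EAE libraries and 20.98, 31.4 and 38.1 FPKM in PBS libraries. The groups overlapped almost fully, although 7 of 8 EAE libraries were below the PBS median, and the log2FC was −0.23 (SE 0.12). The exception was EAE 5, which held the highest Dio2 level of all libraries, and PBS 4 was the lowest of its group.

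The ratio of Dio2 to Dio3 FPKM, activating to inactivating deiodinase mRNA, was 60.0 ± 18.5 in EAE mice and 33.8 ± 10.7 in controls (SD, n = 8 each). It ran from 32.2 in EAE 4 to 94.0 in EAE 5, and from 18.2 in PBS 4 to 50.8 in PBS 5. In 6 EAE libraries the ratio was above the highest PBS ratio, while EAE 2 (42.6) and EAE 4 lay within the PBS range. Dio2 was not higher in EAE mice, so the ratio differed through Dio3. Dio1, the deiodinase of liver and kidney, had 0 to 1 counts in EAE and 0 to 3 counts in PBS libraries, where a count of 0 allows up to 3 counts, so no fold is given.

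**Figure D2:**
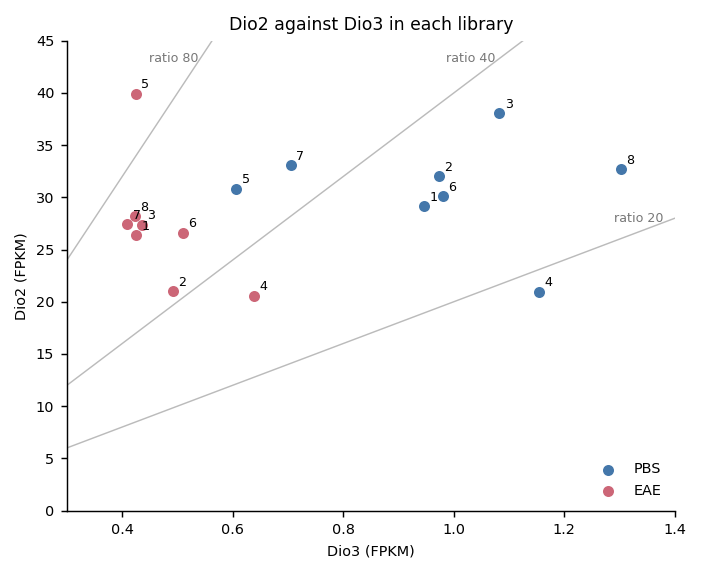
Dio2 FPKM (y axis) against Dio3 FPKM (x axis, starting at 0.3) in each library, numbered by replicate, with grey lines of constant ratio. The EAE libraries lie to the left at Dio3 values of 0.409–0.639 and span the same Dio2 range as PBS libraries, with EAE 5 at a ratio of 94.0 and PBS 4 at 18.2.

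Slco1c1, the T4 carrier of brain endothelium and astrocytes, was at 7.51 ± 1.78 FPKM in EAE mice and 7.10 ± 1.64 FPKM in controls (log2FC 0.03, SE 0.14). Its lowest, median and highest values were 5.67, 7.01 and 9.94 FPKM in EAE libraries and 5.65, 6.30 and 10.03 FPKM in PBS libraries. The groups covered the same range, and 4 of 8 EAE libraries were below the PBS median. All libraries of the set of 6 were within 5.76–6.26 FPKM, whereas the other 10 spread over 5.65–10.03 FPKM.

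Crym, the cytosolic T3-binding crystallin, was at 26.9 ± 2.64 FPKM in EAE mice and 27.5 ± 3.26 FPKM in controls (log2FC −0.08, SE 0.08). It ranged from 23.9 through a median of 26.6 to 32.6 FPKM in EAE libraries, and from 23.5 through a median of 27.3 to 31.3 FPKM in PBS libraries. No library separated the groups, and the direction was not the same within the sets, at a log2FC of 0.09 in the 6 libraries and −0.17 in the other 10.

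The receptor Thra, which carries most T3 binding in brain, was the most abundant member, at 132 ± 7.69 FPKM in EAE mice and 133 ± 9.60 FPKM in controls (log2FC −0.06, SE 0.05). Its values ran from 122 through a median of 134 to 142 FPKM in EAE libraries and from 116 through a median of 136 to 144 FPKM in PBS libraries. The groups were not separated, and the values of Thra, taken per gene symbol, do not tell splice forms apart. Nr1d1, the clock repressor on the opposite strand of its 3′ end, was at 31.2 ± 3.59 and 29.3 ± 4.07 FPKM (log2FC 0.04, SE 0.08).

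Thrb, the second receptor, was at 4.27 ± 0.460 FPKM in EAE mice and 3.73 ± 0.512 FPKM in controls. It ran from 3.68 through a median of 4.16 to 5.14 FPKM in EAE libraries and from 3.18 through a median of 3.66 to 4.77 FPKM in PBS libraries. Each of the 8 EAE libraries was above the PBS median, but 4 of 8 PBS libraries were at or above the lowest EAE value, and the log2FC was 0.15 (SE 0.08). The ratio of Thra to Thrb FPKM was 31.4 ± 4.88 in EAE mice and 36.5 ± 6.82 in controls, and it was lowest in EAE 4 (23.8) and PBS 4 (24.3).

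Hr, the hairless corepressor that binds the thyroid hormone receptors and is itself a classic T3-responsive gene of the brain, was the other member with an adjusted p under 0.05 in the contrast that chose the members. Its lowest, median and highest values were 10.4, 10.9 and 11.9 FPKM in EAE libraries and 11.6, 12.7 and 14.2 FPKM in PBS libraries. All 8 EAE libraries were below the PBS median, and the ranges overlapped only because PBS 4 (11.6) lay below 3 EAE libraries. The means were 11.2 ± 0.604 and 12.8 ± 0.872 FPKM, a log2FC of −0.25 (SE 0.05), with −0.29 within the set of 6 and −0.23 within the other 10.

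Klf9, a transcription factor induced by T3 and also by glucocorticoids, was at 40.3 ± 5.96 FPKM in EAE mice and 44.1 ± 5.08 FPKM in controls. It ran from 34.8 through a median of 39.2 to 54.1 FPKM in EAE libraries and from 32.7 through a median of 45.8 to 48.0 FPKM in PBS libraries. As for Dio2, 7 of 8 EAE libraries were below the PBS median and EAE 5 was the highest of all libraries. PBS 4 held the lowest Klf9 of all libraries, so the groups overlapped widely. The log2FC was −0.18 (SE 0.08).

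All 8 members passed the minimum of 16 counts, and 1 of the 8, Dio3, was a DEmRNA (adjusted p under 0.05 and |log2FC| over 1), against 0.117% of the 17885 mRNAs tested. An adjusted p under 0.05 alone was reached by 2 of 8 members, Dio3 and Hr, against 2.42% of all mRNAs. None of the 8 had FPKM ranges that did not overlap, against 0.263% of all mRNAs. These counts come from the contrast that chose the members.

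Some marker lists also differed between the groups. The 6 striatal neuron markers summed to 152.7–218.6 FPKM in EAE and 222.7–271.6 FPKM in PBS libraries, with 3 of 6 lower by edgeR, where 1.76% of all mRNAs were lower and 0.660% higher. Of the 8 neuron markers, Syt1 and Syp were lower. Of the 8 neutrophil markers, 4 (S100a8, S100a9, Ngp and Ltf) were higher, with sums of 49.2–100.3 in EAE and 19.2–57.4 FPKM in PBS libraries. Of the 10 astrocyte markers, 1 was higher and 2 were lower, of the 12 microglia markers Trem2 was higher, and of the 4 tanycyte markers Frzb was lower. No marker of these lists was at 3 counts or under in every library, and the part of these cell types in the values of Dio3 and Hr was not tested.

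By mean FPKM, the order of the members' levels was the same in EAE mice and controls, a property that the choice of members did not use. From high to low FPKM it was Thra, Klf9, Dio2, Crym, Hr, Slco1c1, Thrb and Dio3. Of the 14 comparisons of neighbours in this order (7 per group), 12 had the same direction in 8 of 8 libraries, each with an exact p of 0.0078, the smallest that 8 pairs can give (two-sided exact paired permutation test), and an adjusted p of 0.00911 over the 14. The order was taken from the same libraries, so the test bears on how steady each step was and not on its direction. Dio2 and Crym could not be placed in order, since the mean difference on the log2(FPKM + 0.01) scale was −0.01 in EAE mice and 0.16 in controls, with an exact permutation p of 0.953 in EAE mice (Dio2 higher in 5 of 8 libraries) and 0.281 in controls (6 of 8 libraries). The widest step was the last one, where Thrb was above Dio3 by 3.17 ± 0.146 on the log2 scale in EAE mice and by 1.96 ± 0.389 in controls (SD, n = 8 each). The order also rests on the transcript lengths implied by the deposited FPKM, which were 15271 bases for Thrb against 3178 for Slco1c1 and 5760 bases for Hr against 1256 for Crym. In counts, which are not scaled by length, Thrb (1483–2095) was above Slco1c1 (443–916) and Hr (1573–2498) above Crym (777–1296).

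**Figure D3:**
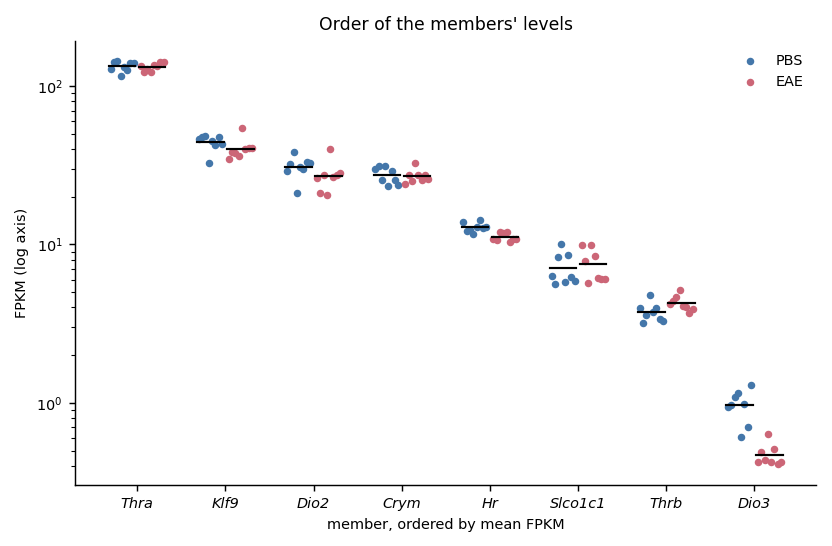
FPKM on a log y axis for the 8 members in order of their mean level, with 1 point per library and a black line at each group mean. Dio2 and Crym share a level, the other neighbours are apart in every library of both groups, and Dio3 lies lowest.

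The members were then compared with one another from mouse to mouse, after the group means of log2 CPM (counts scaled to library size, with TMM factors) were subtracted, so that the EAE difference itself could not produce a correlation. Of the 28 pairs, 7 passed an adjusted p under 0.05 by Pearson's r (permutation test, 100000 resamples, Benjamini-Hochberg over the 28 pairs), 4 positive and 3 negative, and 6 of these passed by Spearman's rho as well. None of the 7 included Dio3, Crym or Hr.

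Dio2 and Klf9 rose and fell together over the 16 libraries (r = 0.87, permutation p = 3e-05, adjusted p = 0.00042, and rho = 0.79, permutation p = 0.00033, adjusted p = 0.00308). Without EAE 5 and PBS 4, the libraries farthest from the median of Dio2, r was 0.65. It was 0.38 within the set of 6 and 0.87 within the other 10. Dio2 also followed Thra (r = 0.77, permutation p = 0.00024, adjusted p = 0.00224, and rho = 0.88, permutation p = 1e-05, adjusted p = 0.00028). That pair kept its size without EAE 5 and PBS 4 (0.83), within the 6 (0.89) and within the other 10 (0.83).

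The 2 receptors ran against each other. Thra and Thrb had r = −0.86 (permutation p = 1e-05, the smallest that the resamples can give, adjusted p = 0.00028) and rho = −0.86 (permutation p = 4e-05, adjusted p = 0.00056). Without EAE 2 and PBS 4, r was −0.85, and it was −0.77 within the set of 6 and −0.84 within the other 10. Thrb was also opposed to Dio2 (r = −0.68, permutation p = 0.00412, adjusted p = 0.0254, and rho = −0.72, permutation p = 0.00218, adjusted p = 0.0122), with −0.63 without EAE 5 and PBS 4, −0.66 in the 6 and −0.73 in the other 10. This pair had an adjusted p over 0.05 in the permutation test without EAE 4 (0.0924), without PBS 4 (0.233) and within the other 10 (0.0936).

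The remaining 3 pairs moved more with the choice of libraries. Thra and Klf9 had r = 0.65 (permutation p = 0.00454, adjusted p = 0.0254) and rho = 0.73 (permutation p = 0.00207, adjusted p = 0.0122), with 0.49 without EAE 2 and PBS 4, 0.38 in the 6 and 0.71 in the other 10. Thrb and Klf9 had r = −0.65 (permutation p = 0.00748, adjusted p = 0.0349) and rho = −0.63 (permutation p = 0.0105, adjusted p = 0.0489), but −0.32 without EAE 4 and PBS 4, and 0.06 in the set of 6 against −0.74 in the other 10. Thrb and Slco1c1 had r = 0.62 (permutation p = 0.0093, adjusted p = 0.0372) and rho = 0.48 (permutation p = 0.0636, adjusted p = 0.254), with 0.27 without EAE 4 and PBS 4, −0.38 in the 6 and 0.46 in the other 10. Thrb and Slco1c1 had an adjusted p over 0.05 in 10 of the 16 permutation tests that left out 1 library, Thrb and Klf9 in 5 (without EAE 4, PBS 2, PBS 4, PBS 6 or PBS 7), and Thra and Klf9 in 2 (without EAE 4 or PBS 4). Of the 28 pairs, 3 passed without EAE 4 and likewise 3 without PBS 4.

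EAE 4 and PBS 4 were extreme for several lists as well. They had the highest summed microglia markers of their groups (221.2 and 203.0 FPKM), and neutrophil marker sums of 49.9 FPKM, next to the lowest EAE value of 49.2, and 19.2 FPKM, the lowest PBS value. The same libraries had the highest Thrb of their groups and the lowest Dio2.

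Over all 16 libraries the members were also set against the summed FPKM of the 16 marker lists, both centred within groups, a comparison chosen after the data were seen. Of these 128 relations, 15 had an adjusted p under 0.05 by Pearson's r and 0 of the 15 also by rho (permutation tests, 100000 resamples, Benjamini-Hochberg over the 128), and none of the 15 involved Dio3 or Hr. For Dio3 the largest r were 0.52 with the choroid plexus sum and 0.51 with the oligodendrocyte precursor sum (adjusted p = 0.156 each by the same permutation test). These were 0.355 and 0.50 in the 6, and 0.62 and 0.54 in the other 10. Thra rose with the neutrophil sum (r = 0.81, permutation p = 0.00019, adjusted p = 0.0122, and rho = 0.68, permutation p = 0.00468, adjusted p = 0.0769), and Thrb ran against it (r = −0.83, permutation p = 0.00014, adjusted p = 0.0122, and rho = −0.75, permutation p = 0.00114, adjusted p = 0.0769). Without the 2 libraries farthest in the receptor's own level, r was 0.66 for Thra and −0.63 for Thrb. Within the set of 6, r was −0.425 and −0.03, and within the other 10 it was 0.81 and −0.78. Thra also rose with the sum of the cortical and hippocampal excitatory neuron markers (r = 0.71, permutation p = 0.0025, adjusted p = 0.0356, and rho = 0.735, permutation p = 0.00177, adjusted p = 0.0769), with 0.72 without its 2 farthest libraries, 0.88 in the 6 and 0.855 in the other 10.

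Dio2 and Klf9 both ran against the tanycyte sum. For Dio2, r was −0.785 (permutation p = 0.00056, adjusted p = 0.0179) and rho −0.70 (permutation p = 0.00298, adjusted p = 0.0769), with −0.64 without the 2 farthest libraries, −0.45 in the 6 and −0.81 in the other 10. For Klf9, r was −0.755 (permutation p = 0.00083, adjusted p = 0.0192) and rho −0.61 (permutation p = 0.0138, adjusted p = 0.104), with −0.58, −0.25 and −0.78 in the same order. Dio2 had r = 0.31 with the astrocyte sum and 0.62 with the endothelial sum (adjusted p = 0.436 and 0.0748 by the permutation test). These were −0.16 and 0.36 without the 2 farthest libraries, 0.89 and 0.69 in the 6, and 0.52 and 0.83 in the other 10. With the microglia sum, r was −0.67 for Thra (permutation p = 0.00512, adjusted p = 0.0464, and rho = −0.67, permutation p = 0.00504, adjusted p = 0.0769) and 0.69 for Thrb (permutation p = 0.00227, adjusted p = 0.0356, and rho = 0.64, permutation p = 0.00836, adjusted p = 0.0973). These were −0.51 and 0.38 without the 2 farthest libraries, −0.375 and 0.33 in the 6, and −0.535 and 0.64 in the other 10. The rest with an adjusted p under 0.05 by r (same permutation test) involved Slco1c1, Crym and Thrb. Slco1c1 ran against the neutrophil (−0.71) and pituitary (−0.76) sums, and rose with the microglia (0.67) and choroid plexus (0.68) sums. In the same order these were 0.25, −0.97, −0.66 and −0.56 in the 6, and −0.53, −0.61, 0.565 and 0.45 in the other 10. Crym rose with the oligodendrocyte precursor (0.78), oligodendrocyte (0.69) and choroid plexus (0.685) sums. These were 0.10, 0.40 and −0.68 in the 6, and 0.78, 0.70 and 0.58 in the other 10. With the neuron sum, which was not among these relations, the r of Crym was 0.02. Thrb rose with the choroid plexus sum (0.66, with 0.15 in the 6 and 0.49 in the other 10). Whether the correlations between members hold at a fixed cell composition was not tested.

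**Figure D4:**
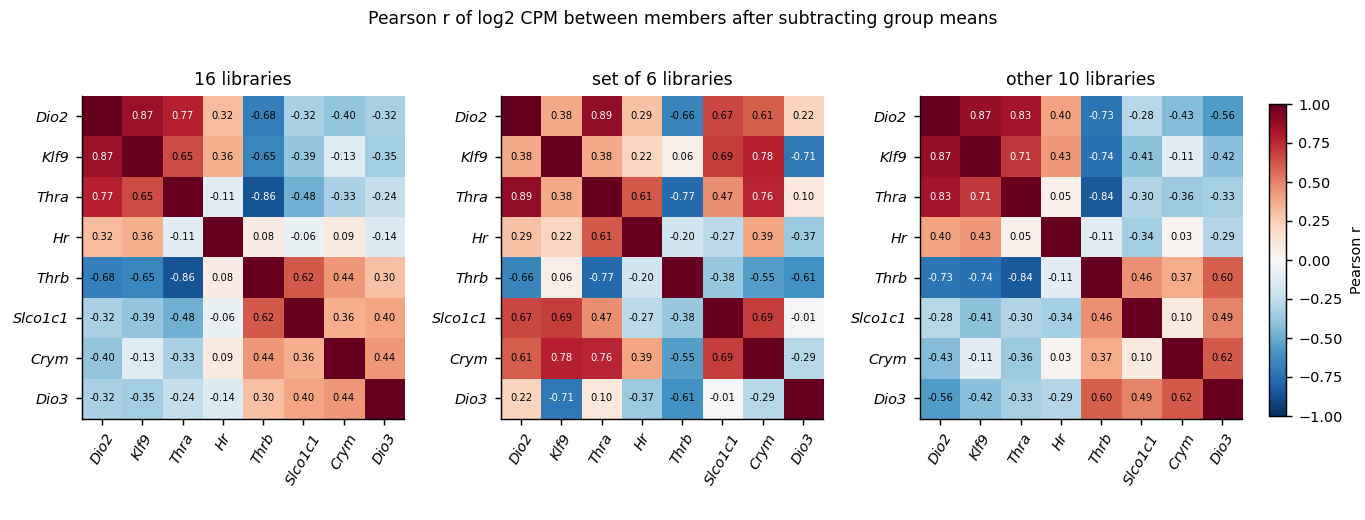
Pearson r between the members' log2 CPM after subtraction of group means, over all 16 libraries, within the set of 6 and within the other 10, on a colour scale from −1 (blue) to 1 (red). Dio2, Klf9 and Thra form a positive block opposed to Thrb over 16 and over 10 libraries, and the Thra and Thrb pair is negative in each panel (−0.86, −0.77 and −0.84).

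Because Dio2 and Klf9 were the pair with the highest r, the RefSeq promoter windows of both are shown, 250 bases before to 50 after the start (GRCm38.p6). The tables used held windows for 5 of the 8 members (Dio2, Dio3, Klf9, Slco1c1 and Thrb). Each line is 300 bases, 5′ to 3′ on the gene's strand, at chr12:90738989-90739288 (minus) for Dio2 and chr19:23140976-23141275 (plus) for Klf9. Capitals mark TGACG on either strand, the half-site of the cyclic AMP response element, which in Dio2 occurs on both strands of 1 palindrome.
Dio2: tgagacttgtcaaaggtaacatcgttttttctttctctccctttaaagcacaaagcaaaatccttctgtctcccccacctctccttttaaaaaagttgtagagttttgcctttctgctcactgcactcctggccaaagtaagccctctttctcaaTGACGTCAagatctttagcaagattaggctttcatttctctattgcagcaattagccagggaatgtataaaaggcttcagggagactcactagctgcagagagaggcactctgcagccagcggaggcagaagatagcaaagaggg
Klf9: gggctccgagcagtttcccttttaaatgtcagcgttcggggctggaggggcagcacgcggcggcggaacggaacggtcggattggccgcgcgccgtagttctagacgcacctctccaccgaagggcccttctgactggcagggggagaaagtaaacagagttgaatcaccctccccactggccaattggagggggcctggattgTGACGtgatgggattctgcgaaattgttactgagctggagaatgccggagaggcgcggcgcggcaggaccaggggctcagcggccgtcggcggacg
TGACG or its complement was in the windows of Dio2, Klf9 and 1 of the windows of Thrb, and in 20.8% of all 32851 windows of this length. AGGTCA, the half-site of thyroid hormone receptors, was searched on both strands and was in 1 Thrb window and in 16.3% of all windows, and neither of the windows printed here holds it. The GC content was 44.7% in the Dio2 window with 3 CpG dinucleotides, and 63.3% in the Klf9 window with 28. Other motifs were searched as well. TATAAA (13.6% of all windows) was in the Dio2 window and not that of Klf9, and CCAAT (37.4%) in the Klf9 window and not that of Dio2. GGGCGG (35.7%) was in neither. TGACG was the only motif searched that both windows hold. These are matches of letters and say nothing of binding. The RefSeq start of Dio2 lies upstream of the GENCODE gene, and that of Klf9 is the same in both.

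For 4 members, the 8 mRNAs most alike from mouse to mouse were listed by r of the group-centred log2 CPM over 16 libraries, among 14760 mRNAs with a mean of at least 1 CPM, as a description. For Dio3 these were Mei4 (r = 0.81), Paqr9 (0.80), Zfp446, Gm3055, Ppil6, Top1, Acad8 and Tmem144 (0.72). The r of Mei4 was 0.93 within the set of 6 and 0.83 within the other 10. At 20 to 75 counts per library, counting noise limits any such likeness of Dio3.

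For Dio2, the list was led by Ezr (0.94), the ezrin of astrocyte processes, and went on with Sbk1, Wwtr1, Klf4, Csnk1g2, Arhgef4, Gnl1 and Mapk8ip1 (0.91). Ezr kept 0.97 in the other 10 and had 0.61 in the set of 6, whereas Csnk1g2 had 0.94 and −0.29. For Slco1c1, it was led by Dnal1 (0.95), Phkb (0.94), Gm32856, Slc25a36 and Mlh3, and the r of Dnal1 was 0.06 within the set of 6 and 0.93 within the other 10. For Crym, it was LOC108167485 (0.91), Pam, Mertk, Enpp2, Galnt9, Adcy3, Vangl1 and Fezf2 (0.90), all with a positive r within both sets.

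The other genes of the pathway were taken from a list by role. Of 63 genes that are not members, 62 were in the tables and 59 were tested. By the edgeR quasi-likelihood test, with Benjamini-Hochberg adjustment over all mRNAs, 0 rose and 2 fell in EAE mice, Ttr and Nefh, against 0.660% of all mRNAs higher, 1.76% lower and 2.42% in all, so that the 2 of 59 are near the share of all mRNAs. DESeq2 called 0 higher and 3 lower of the list (Nefh, Trh and Ttr), where it called 899 of all mRNAs, 602 of them lower. At an unadjusted p under 0.05 by edgeR there were 2 higher and 3 lower, a rule for which the share of all mRNAs is not given here. The median log2FC of the list was −0.02, against 0.01 for all mRNAs tested.

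Ttr, transthyretin, the T4 carrier of the cerebrospinal fluid that is made by the choroid plexus, fell from 142.0 ± 52.8 to 79.99 ± 18.2 FPKM (log2FC −0.88, SE 0.18, adjusted p = 0.0163 by the edgeR quasi-likelihood test after Benjamini-Hochberg adjustment). Its lowest, median and highest values were 67.6, 72.8 and 120.3 FPKM in EAE and 86.7, 144.2 and 226.7 FPKM in PBS libraries, and EAE 4 and EAE 5 lay above the lowest PBS library. The log2FC was −0.30 within the set of 6, where the PBS libraries were at 86.7–89.1 FPKM, and −1.11 within the other 10, where they were at 129.5–226.7 FPKM, and with limma on log2(FPKM + 0.1) the adjusted p was 0.0843. The 7 other choroid plexus markers summed to 8.08–11.8 FPKM in EAE and 8.51–13.3 FPKM in PBS libraries with 0 called by edgeR, and their part in the Ttr value was not tested.

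Nefh, the heavy neurofilament and a T3-responsive gene of neurons, fell from 9.24 ± 0.425 to 8.26 ± 0.518 FPKM (log2FC −0.21, SE 0.05, adjusted p = 0.0293 by the edgeR quasi-likelihood test after Benjamini-Hochberg adjustment). Its values were 7.42–8.97 FPKM in EAE and 8.68–9.71 FPKM in PBS libraries. The adjusted p was over 0.05 in the same test without any 1 of EAE 1, EAE 2, EAE 6, EAE 8, PBS 2 or PBS 7 (0.0511 to 0.0713), within the other 10 libraries (0.239) and with limma on log2(FPKM + 0.1) (0.101), and Ttr kept its call in all 16 fits that left out 1 library. The neuron markers Syt1 and Syp and the striatal list were lower as well, and their part in the Nefh value was not tested.

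Membrane carriers other than Slco1c1 gave 0 calls of 8, with log2FC values from −0.12 to 0.10. Among the highest in FPKM were Slc3a2, the heavy chain of the amino acid carriers that also move T3 (log2FC −0.07), and its light chains Slc7a8 (−0.02) and Slc7a5 (−0.12). Of the proteins that govern deiodinase turnover, Usp33 and Usp20, which remove ubiquitin from Dio2, had log2FC values of 0.04 and −0.07, and Wsb1, which adds it, 0.17 (SE 0.11). None of the 3 passed the test. Genes for selenoprotein synthesis, needed for both Dio2 and Dio3, gave 0 calls of 6, among them Pstk (0.06), Secisbp2 (−0.04), Trnau1ap (0.10) and Sephs2 (−0.09).

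The retinoid X receptors, partners of Thra and Thrb, were at log2FC −0.11 for Rxra, −0.04 for Rxrb and −0.08 for Rxrg, with 0 of 3 called. Other coregulators than Hr gave 0 calls of 10, with Hdac3 at 0.12 (SE 0.04, adjusted p = 0.167 by edgeR with Benjamini-Hochberg adjustment), Ncor1 at 0.03 and Ncoa1 at −0.03. Of 13 hormone-responsive genes of the brain other than Klf9, 1 was called, Nefh. The most abundant of the rest were Mbp (log2FC −0.13, 538 ± 84.6 and 568 ± 41.3 FPKM), Nrgn (−0.05), Sema7a (−0.09) and Nefm (−0.11). Known inducers of Dio3 transcription gave 0 calls of 5, with Hif1a at −0.02, Smad3 at 0.01, Tgfb1 at 0.25 (SE 0.15) and Gli1 at −0.10.

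Of the thyroid axis, 0 of 9 genes tested were called in the main fit, but the call of Trh turned on the model and on the libraries. Trh, the hypothalamic releasing hormone, was at 3.61 ± 0.971 FPKM in EAE and 5.77 ± 2.06 FPKM in PBS libraries (log2FC −0.73, SE 0.20, adjusted p = 0.0594 by edgeR with Benjamini-Hochberg adjustment). Its receptor Trhr was at a log2FC of −0.28, the degrading enzyme Trhde at −0.04 and the iodide carrier Slc5a5 at −0.17. The 7 hypothalamic neuron markers summed to 17.9–42.7 FPKM in EAE and 22.7–34.5 FPKM in PBS libraries.

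**Figure D5:**
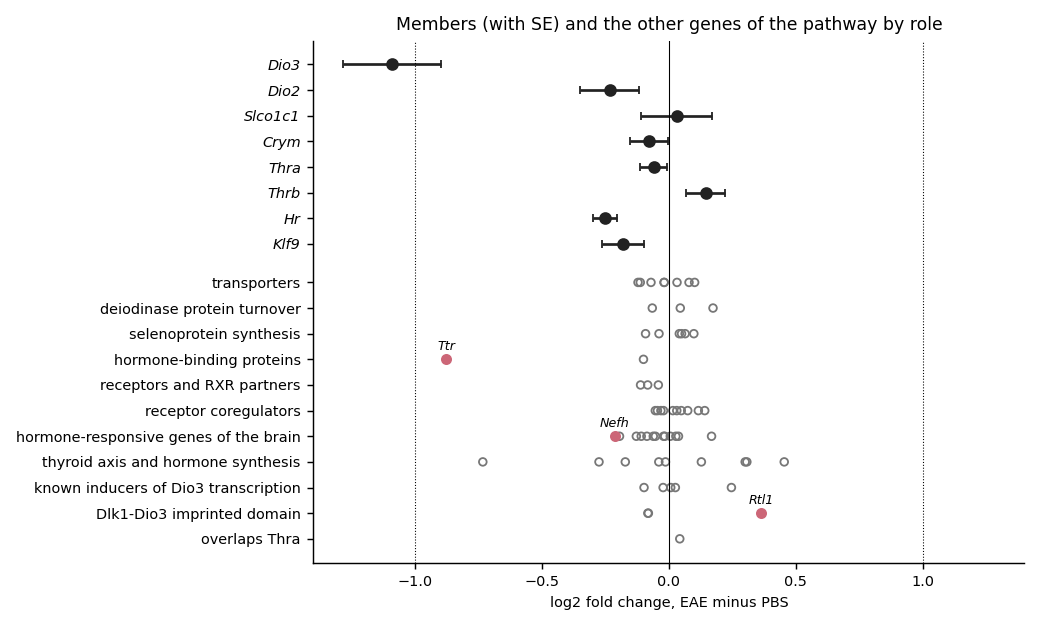
Log2 fold changes (x axis, EAE minus PBS), with SE bars for the 8 members and 1 symbol per gene for the other pathway genes by role, filled where the adjusted p of the edgeR test was under 0.05 and with dotted lines at −1 and 1. Dio3 lies at −1.09, Ttr at −0.88 and Nefh at −0.21, Rtl1 of the Dio3 domain at 0.36, and most others lie near 0.

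The imprinted domain that holds Dio3 was read from its 3 other genes in the tables. Rtl1, a retrotransposon-derived gene expressed from the paternal allele as Dio3 is, lies 0.6787 Mb upstream of Dio3 at chr12:109589193-109600330 on the minus strand and rose from 19.5 ± 2.50 to 26.01 ± 3.48 FPKM (log2FC 0.36, SE 0.08, adjusted p = 0.0265 by the edgeR quasi-likelihood test after Benjamini-Hochberg adjustment). Its values were 19.0–29.7 FPKM in EAE and 16.8–22.8 FPKM in PBS libraries, with EAE 5 lowest of its group. The log2FC was 0.61 within the set of 6 and 0.21 within the other 10, where the adjusted p was 0.469 in the same test, and without any 1 of EAE 2, EAE 6, EAE 8, PBS 2, PBS 3, PBS 5 or PBS 7 it was 0.0528 to 0.0612. With limma on log2(FPKM + 0.1) it was 0.0556. Rtl1 overlaps several microRNA genes, most of them on the opposite strand. Dlk1, the paternally expressed gene at the other end of the domain, was at 3.95 ± 0.308 and 4.04 ± 0.320 FPKM (log2FC −0.08), and Begain at 31.7 ± 4.33 and 32.4 ± 3.82 FPKM (log2FC −0.08). The group log2FC values of Dio3 and Rtl1 had opposite signs, and the relation of the 2 genes from mouse to mouse was not tested.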

How the data were processed

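Total RNA of CD11b+/CD45int cells was sequenced by the authors as stranded libraries, 1 per mouse, with no pooling. The authors aligned the reads to GRCm38 with HISAT2 2.1.0, counted them per mRNA with HTSeq 0.11.2 and deposited raw counts and FPKM for 21878 mRNAs. The annotation release, the strand setting and the lengths behind FPKM are not given in the sources used here. Counts divided by total and FPKM were constant over libraries (relative spread 1.15e-09 over 7749 mRNAs with more than 500 counts in every library), so both deposited tables, counts and FPKM, hold the same reads.

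Counts were tested with edgeR 4.0.16 (R 4.3.3) by the quasi-likelihood test after TMM normalization, for 17885 mRNAs with at least 16 counts in all, with Benjamini-Hochberg adjustment over all of them. An adjusted p under 0.05 and a |log2FC| over 1 called a DEmRNA. The script was tested on simulated data. Levels were ordered on log2(FPKM + 0.01), and correlations used log2 CPM with a prior count of 2 (scipy 1.17.1), between members and, added after the data were seen, with marker sums. Alternatives were DESeq2 1.42.0, limma 3.58.1 on log2(FPKM + 0.1), other filters and size factors, a robust fit, sets of libraries, a replicate block, other pseudocounts and leaving out each library. No pair of libraries was identical. P-values rest on the spread between libraries of 1 mouse each, which includes counting error.

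The members, the pathway and marker lists and the set of 6 libraries were chosen with earlier results of these data known. Named besides the members were pathway genes with an adjusted p under 0.05 and up to 4 others per role with the highest FPKM, domain genes and overlapping genes in the tables, and the 8 mRNAs most alike to each of 4 members. March6, Meg3, Rian, Mirg and Dio3os were not analysed here. Some genes that the rule names are not reported here. Positions are from GENCODE M21, promoters from RefSeq.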

Additional observations from a re-analysis of the deposited data

Results flagged for a closer look

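Among 32 groups of 8 values examined for a library far from the rest (the gap to the nearest library over the range, by Dixon's 95% critical value), 6 stood out, and chance gives about 1 in 20. EAE 5 was the highest EAE library for Dio2 at 39.94 FPKM (gap 0.606 of the range) and for Klf9 at 54.06 FPKM (0.69), and the lowest for Dlk1 at 3.232 FPKM (0.717). EAE 4 was the highest EAE library for Dio3 at 0.639 FPKM (0.565) and for Crym at 32.65 FPKM (0.58). PBS 4 was the lowest PBS library for Klf9 at 32.72 FPKM (0.616). EAE 5 had the lowest neuron marker sum (890.7 FPKM) and the highest astrocyte marker sum (1456 FPKM) of the EAE group, and EAE 4 the highest microglia marker sum (221.2 FPKM). Whether these sums bear on the 6 values was not tested.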

How the results depend on the processing

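The log2FC of Dio3 stayed negative under all 26 alternatives, from −1.17 to −0.89 (limma), and those of Dio2, Hr, Klf9 and Thra stayed negative and that of Thrb positive, while Slco1c1 (−0.03 to 0.12) and Crym (−0.17 to 0.09) took both signs. All 26 alternatives reuse libraries of the contrast that chose the members, so the signs are a description and add no support for Dio3. The 21 DEmRNAs became 11 with at least 1 CPM in 8 libraries, 11 with limma, 38 with a term for the set of 6 libraries, 177 within the 6 and 6 within the other 10, and 13 (without EAE 8) to 49 (without EAE 4) without 1 library. The 433 mRNAs with an adjusted p under 0.05, 315 of them lower, became 899 with DESeq2, 148 with limma (38 lower), 768 with the term, 4147 within the 6 and 13 within the other 10, and 144 (without PBS 2) to 1317 (without EAE 4) without 1 library. The 2 pathway genes became 0 with limma (7 at an unadjusted p under 0.05), 9 within the 6 and 1 within the other 10, and 1 to 4 without 1 library, with 4 only without EAE 4 (Nefh, Trh, Trhr and Ttr) and 1 without EAE 1, EAE 2, EAE 6, EAE 8, PBS 2 or PBS 7. The 7 correlated pairs became 0 within the 6 by the permutation test (0 also unadjusted) and 3 within the other 10, and 3 to 8 without 1 library. Thrb and Slco1c1 turned to r = −0.38 and Thrb and Klf9 to 0.056 within the 6. The 12 ordered neighbours stayed 12 in all 17 alternatives. The causes were not tested. Replicate numbers did not pair the libraries, since same-numbered deviations correlated at −0.222 to 0.565, over 0.1 in 3 of 8 pairs and best with their own number in 2 of 8, and a replicate block gave 16 DEmRNAs, 517 mRNAs with an adjusted p under 0.05, 2 pathway genes and a Dio3 log2FC of −1.07. At 20 to 75 counts per library, depth limits Dio3 more than any other member.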
